A study of Mus musculus with 34 samples.

Results

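A set of 5 enzymes of cholesterol synthesis was followed in mouse epididymal fat: Hmgcs1, Idi1, Fdps, Msmo1 (older symbol Sc4mol) and Tm7sf2. The genes were chosen by name, through the platform annotation of the array probes. Each of the 5 genes had 1 probe, so 5 of 25344 probes and 5 of 22879 tested features carried them. In RefSeq's GRCm38.p6 gene table Hmgcs1 lies at chr13:119690351-119708260, Idi1 at chr13:8885606-8892396, Fdps at chr3:89093588-89101967, Msmo1 at chr8:64718123-64733578 and Tm7sf2 at chr19:6062821-6067850. The sources used here do not say which exon a probe matches.

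By its title, the study concerned obesity passed on over generations under a fat diet. STD mice had a normal diet, and HF0 mice were their offspring on a high fat diet. HF1 mice were born to HF0 parents and HF4 mice to HF3 parents, each kept on the high fat diet, as were the HF3 mice, whose parents were the HF2 generation. The reversal groups HF1-REV, HF3-REV and HF4-REV came from HF0, HF2 and HF3 parents and were given the normal diet. The sources used here do not state strain, age or the number of animals behind an extract. Nor do they state whether the arrays of a group held the same RNA. The word extract stands here for all RNA of 1 group in 1 experiment. RNA of 2 groups was hybridised on each of 34 dual-label arrays, 12 in experiment 1 (Trizol extraction) and 22 in experiment 2 (Qiagen extraction). Every pairing was made in both dye orientations, which gave 17 dye swaps. STD, HF0, HF3 and HF4 were in both experiments (n = 2), and HF1 and the reversal groups in experiment 2 alone (n = 1).

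Cholesterol is built from acetyl-CoA by way of mevalonate, isoprenoid diphosphates, squalene and lanosterol. When sterols in the endoplasmic reticulum run low, the transcription factor SREBP2 is activated and raises transcription of most genes of the pathway together. Fat cells make little cholesterol themselves and take most of it up from lipoproteins, but hold a large share of the body's free cholesterol at the surface of their lipid droplets. Hmgcs1, the cytosolic HMG-CoA synthase, makes HMG-CoA, from which mevalonate is formed. Idi1 interconverts the isoprenoid building units, and Fdps joins them into farnesyl diphosphate, the branch point to sterols, ubiquinone, dolichol and prenylated proteins. Msmo1 takes part in removing the methyl groups next to the hydroxyl group of lanosterol-derived sterols, and Tm7sf2 is a sterol reductase of the endoplasmic reticulum.

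Genes of this pathway are known to share promoter elements, so the stretch before the start site is shown for an early enzyme, for the isomerase and for a late enzyme. Promoters from RefSeq (GRCm38.p6) were matched for 4 of the 5 genes, Hmgcs1, Idi1, Msmo1 and Tm7sf2. Each line gives the 250 bases before the annotated start, 5′ to 3′ on the strand of the gene. Capitals mark matches, on either strand, to TCACNCCAC (a form of the sterol response element), CCAAT (the NF-Y box) and GGGCGG (the GC box). The stretches are chr13:119690101-119690350 (plus strand) for Hmgcs1, chr13:8885356-8885605 (plus strand) for Idi1 and chr8:64733579-64733828 (minus strand) for Msmo1.
Hmgcs1: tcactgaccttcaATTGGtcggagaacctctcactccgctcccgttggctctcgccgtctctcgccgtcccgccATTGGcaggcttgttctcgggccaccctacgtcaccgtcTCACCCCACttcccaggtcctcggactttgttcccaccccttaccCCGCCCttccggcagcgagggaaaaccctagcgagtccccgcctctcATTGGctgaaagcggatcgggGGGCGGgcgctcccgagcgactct
Idi1: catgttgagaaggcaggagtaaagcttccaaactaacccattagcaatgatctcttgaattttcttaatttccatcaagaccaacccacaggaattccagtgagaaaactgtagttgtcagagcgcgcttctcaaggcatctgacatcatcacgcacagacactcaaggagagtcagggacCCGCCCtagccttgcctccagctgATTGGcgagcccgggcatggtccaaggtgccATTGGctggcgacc
Msmo1: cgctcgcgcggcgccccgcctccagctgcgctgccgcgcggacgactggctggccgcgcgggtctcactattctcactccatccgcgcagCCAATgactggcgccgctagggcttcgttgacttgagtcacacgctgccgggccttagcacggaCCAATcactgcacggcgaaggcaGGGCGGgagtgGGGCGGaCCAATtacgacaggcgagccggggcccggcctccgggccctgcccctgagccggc

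The sterol response element letters stood in the promoter of Hmgcs1 alone among the 4, from position -137 on the plus strand, counted from the start site. Over the whole 300-base windows of the table (250 bases before and 50 after the start) the same letters occurred in 1.24% of 32851 promoters. Of the 15 pathway genes with a promoter in the table, Hmgcs1 alone had them. The CCAAT letters occurred in all 4 of the matched promoters, on the minus strand at -45 in Hmgcs1, -45 in Idi1 and -47 in Tm7sf2 and on the plus strand at -55 in Msmo1, among other places. They occurred in 37.4% of all promoters and in 14 of 15 pathway genes with a promoter in the table. The GC box letters occurred in all 4 as well, in 35.7% of all promoters and in 14 of the 15. A pathway gene was counted if any of its promoters matched, while the percentages count single promoters. None of the 3 motifs overlapped another in the printed stretches. A match describes letters and does not show a bound site, and a missing match does not show that an element is absent.

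The values are log ratios of 1 group over another, coded as Cy5 over Cy3, with the sign reversed where the second-named group was in Cy5. The sources used here do not name the numerator dye, so a positive value stands for more RNA of the group named first only if Cy5 was the numerator, and signs are to be read relative to each other. Nor do they name the log base, which was taken as 2, so no folds are printed. The ratios hold no intensities, so levels of different genes cannot be compared and spots near background cannot be told from bright ones. Over the whole table, the median ratio of an array lay between -0.062 and 0.046. The STD extract of experiment 2 stood apart from the other extracts, with a median of 2.90 over 15 epididymis epithelium markers against -1.73 to 0.73 in the other 11 combinations of group and experiment. The median of 25 male germ cell markers ran from -3.83 in HF1-REV to 1.89 in HF4 of experiment 1. In tissue extracts of this kind, fewer cells of a type and less RNA per cell cannot be told apart.

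None of the 5 genes passed the test in any of the 9 comparisons (limma moderated test over all features, Benjamini-Hochberg adjusted p under 0.05). In HF0 against STD 0 of 5 passed, beside 0% of all features. In HF3 against STD it was 0 of 5 beside 0%, and in HF4 against STD 0 of 5 beside 0.437%. Among the high fat generations the counts were 0 of 5 in HF1 against HF0 beside 0%, 0 of 5 in HF3 against HF0 beside 0%, and 0 of 5 in HF4 against HF0 beside 4.21%. For the diet reversals they were 0 of 5 in HF1 against HF1-REV beside 0%, 0 of 5 in HF3 against HF3-REV beside 0.0874%, and 0 of 5 in HF4 against HF4-REV beside 11.2%. These shares move with the processing: the 2552 features called in HF4 against HF4-REV were 136 with quantile and 1131 with scale normalization and 4884 without the STD extract of experiment 2, and the 100 in HF4 against STD were 0, 345 and 898. The F test over the 8 groups passed 0 of 5 genes beside 0.804% of features. Idi1 came nearest there, with an adjusted p of 0.0868 by limma, and the other 4 lay between 0.326 (Hmgcs1) and 0.755 (Tm7sf2). At an unadjusted p under 0.05, Idi1 was the only one of the 5 to be counted in any comparison, in HF0 against STD, HF3 against STD, HF1 against HF1-REV and HF3 against HF3-REV, beside 1685, 1708, 821 and 3523 of 22879 features. With 3 residual degrees of freedom a p that misses the threshold does not show that the groups are alike.

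**Figure D1:**
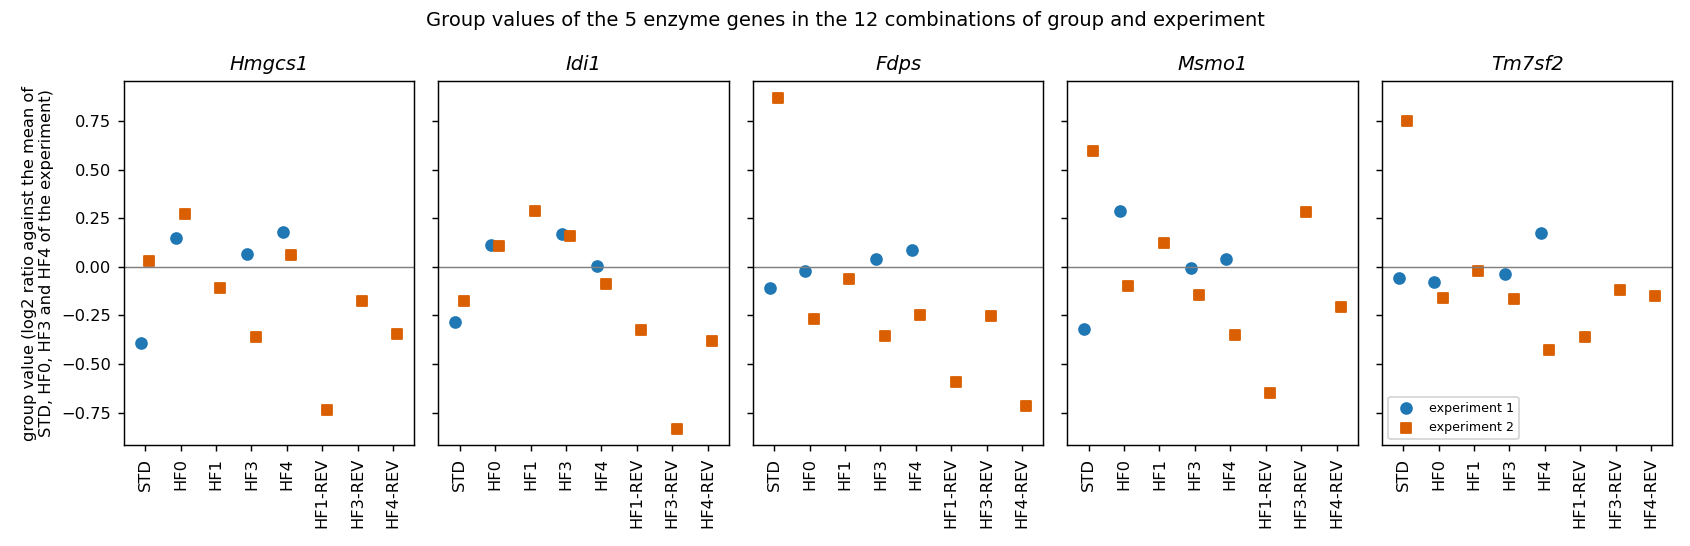
Group values of the 5 genes (vertical axis: log2 ratio against the mean of STD, HF0, HF3 and HF4 of the same experiment), with circles for experiment 1 and squares for experiment 2. The STD square of experiment 2 is the highest point of Fdps (0.87), Msmo1 (0.60) and Tm7sf2 (0.75), and the HF3-REV square is the lowest of Idi1 (-0.83).

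Hmgcs1, which makes HMG-CoA for the mevalonate route, was higher in HF0 than in STD on the coded scale in both experiments, without passing the test. The arrays of Hmgcs1 in HF0 against STD read 0.76 and 0.25 in experiment 1, -0.32 and 0.85 in the earlier dye swap of experiment 2 and 0.16 and 0.28 in the later one. Of the 6 arrays 5 were positive, and the negative one was the swap partner of the highest. The difference was 0.39 ± 0.21 (SE, n = 2 experiments, adjusted p = 0.717 by limma), with 0.54 in experiment 1 and 0.24 in experiment 2. Its group values in experiment 1 were -0.39 in STD, 0.15 in HF0, 0.064 in HF3 and 0.18 in HF4. In experiment 2 they were 0.028 in STD, 0.27 in HF0, -0.36 in HF3 and 0.063 in HF4, and -0.11 in HF1, -0.73 in HF1-REV, -0.17 in HF3-REV and -0.35 in HF4-REV. STD was thus the lowest group of experiment 1, while in experiment 2 HF1-REV was the lowest and STD lay in the upper part of the 8. HF3 went with HF4 in experiment 1 and apart from it in experiment 2.

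Idi1, the isopentenyl diphosphate isomerase, kept its sign in HF0 against STD most evenly of the 5. The arrays of Idi1 in HF0 against STD read 0.76 and 0.30 in experiment 1, 0.11 and 0.51 in the earlier dye swap of experiment 2 and 0.42 and 0.087 in the later one. All 6 arrays were positive, and the difference was 0.34 ± 0.11 (SE, n = 2 experiments, adjusted p = 0.674 by limma), 0.39 and 0.28 in experiments 1 and 2. Its group values in experiment 1 were -0.28 in STD, 0.11 in HF0, 0.17 in HF3 and 0.0038 in HF4. In experiment 2 they were -0.18 in STD, 0.11 in HF0, 0.16 in HF3 and -0.088 in HF4, and 0.28 in HF1, -0.32 in HF1-REV, -0.83 in HF3-REV and -0.38 in HF4-REV. STD was the lowest of the 4 groups common to both experiments in each of them. In experiment 2 the 3 reversal groups, also on the normal diet, lay below STD. Each of these 3 values rests on 1 dye swap whose 2 arrays differed. HF1 over HF1-REV read 0.92 and 0.30, HF3 over HF3-REV 0.20 and 1.77, and HF4 over HF4-REV -0.24 and 0.82. HF0 and HF3 lay within 0.1 of each other in both experiments, so these neighbours did not differ beyond the SE of 0.11.

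Fdps, farnesyl diphosphate synthase, took opposite signs on the direct arrays of HF0 and STD in the 2 experiments. The arrays of Fdps in HF0 against STD read 0.73 and 0.10 in experiment 1, -1.85 and -0.79 in the earlier dye swap of experiment 2 and -1.10 and -0.82 in the later one. The 2 arrays of experiment 1 were positive and the 4 of experiment 2 negative, so the arrays of the experiments did not overlap. The difference over both was -0.53 ± 0.34 (SE, n = 2 experiments, adjusted p = 0.764 by limma). Within the experiments the fitted values, which also use the indirect pairings, were 0.086 and -1.14. The value of experiment 1 was smaller than the spread of its dye-swap means around the group values (residual SD 0.38), so its sign is not settled. Its group values in experiment 1 were -0.11 in STD, -0.021 in HF0, 0.039 in HF3 and 0.088 in HF4. In experiment 2 they were 0.87 in STD, -0.27 in HF0, -0.35 in HF3 and -0.25 in HF4, and -0.060 in HF1, -0.59 in HF1-REV, -0.26 in HF3-REV and -0.71 in HF4-REV. In experiment 2 the STD extract was the highest, HF1 came next, and HF4-REV was the lowest. Without the STD extract of experiment 2, HF0 against STD stood at 0.13.

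Msmo1, the methylsterol monooxygenase, showed the same split. The arrays of Msmo1 in HF0 against STD read 0.81 and 0.42 in experiment 1, -0.73 and -0.88 in the earlier dye swap of experiment 2 and -0.31 and -0.86 in the later one. Both arrays of experiment 1 were positive and all 4 of experiment 2 negative, and the array values of the experiments did not overlap. The difference over both was -0.045 ± 0.32 (SE, n = 2 experiments, adjusted p = 0.985 by limma), made of 0.61 in experiment 1 and -0.70 in experiment 2. Its sign turned to 0.13 after scale normalization, to 0.15 after quantile normalization and to 0.57 without the STD extract of experiment 2. Its group values in experiment 1 were -0.32 in STD, 0.29 in HF0, -0.0082 in HF3 and 0.039 in HF4. In experiment 2 they were 0.60 in STD, -0.10 in HF0, -0.14 in HF3 and -0.35 in HF4, and 0.12 in HF1, -0.65 in HF1-REV, 0.28 in HF3-REV and -0.21 in HF4-REV. STD was the lowest group in experiment 1 and the highest in experiment 2, where HF1-REV was the lowest.

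Tm7sf2, the sterol reductase, was near 0 in experiment 1 and lower in HF0 than in STD on the coded scale in experiment 2. The arrays of Tm7sf2 in HF0 against STD read -0.39 and 0.23 in experiment 1, -0.49 and -0.96 in the earlier dye swap of experiment 2 and -1.29 and -0.90 in the later one. The 2 arrays of experiment 1 differed in sign, and the 4 of experiment 2 were all negative. The difference was -0.47 ± 0.31 (SE, n = 2 experiments, adjusted p = 0.771 by limma), from -0.025 and -0.91. Its group values in experiment 1 were -0.055 in STD, -0.080 in HF0, -0.039 in HF3 and 0.17 in HF4, a range smaller than that of the 4 other genes except Fdps. In experiment 2 they were 0.75 in STD, -0.16 in HF0, -0.17 in HF3 and -0.43 in HF4, and -0.021 in HF1, -0.36 in HF1-REV, -0.12 in HF3-REV and -0.15 in HF4-REV. The STD extract of experiment 2 was the highest of the 8, with HF1 next. Without that STD extract HF0 against STD stood at 0.070.

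The split between experiments in HF0 against STD therefore lay in 2 of the 5 genes by array signs, Fdps and Msmo1. Arrays of experiment 1 of 1 sign and arrays of experiment 2 all of the other occurred in 11% of all features. The same STD extract of experiment 2 had the highest values of Fdps, Msmo1 and Tm7sf2 and of the epididymis markers, such as Lcn5 (-3.64 in HF0 against STD), Spink12 (-4.12) and Defb20 (-4.18). All 15 of those markers were negative in HF0 against STD (-4.49 to -0.33), with medians of -1.34 in experiment 1 and -4.59 in experiment 2. Of 18 macrophage markers 17 were positive (median 0.67), of 13 endothelial markers 2 (median -0.53), of 18 adipocyte markers 3 (median -0.54) and of 25 male germ cell markers 1 (median -1.47). Their part in the values of the enzymes was not tested. Hmgcs1 and Idi1 did not share the split by array signs. In that extract they stood at 0.028 and -0.18, and in the STD extract of experiment 1 at -0.39 and -0.28. The value of Hmgcs1 in HF0 against STD was 0.54 in experiment 1 and 0.24 in experiment 2.

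**Figure D2:**
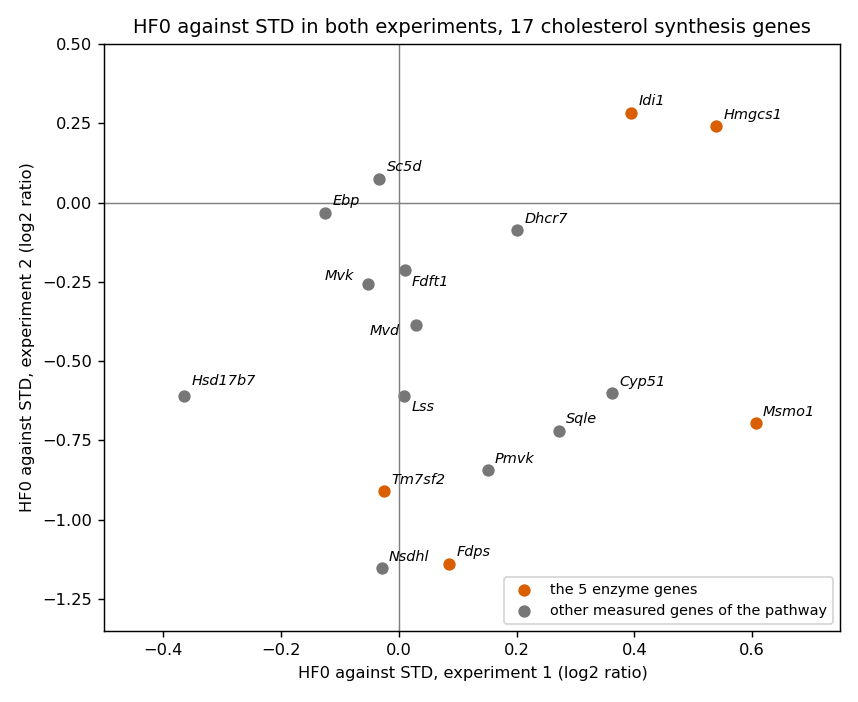
HF0 against STD in experiment 1 (horizontal axis, log2 ratio) and experiment 2 (vertical axis, log2 ratio) for the 17 measured genes of cholesterol synthesis, the 5 enzyme genes in orange. Idi1 and Hmgcs1 are the 2 points above 0 in both, and Msmo1 lies at 0.61 and -0.70.

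The rest of the pathway was set beside the 5 genes through a list of 20 enzymes, 17 of them measured. Of these 17, 0 passed the test in either direction in any of the 9 comparisons. In HF0 against STD their median was -0.15, against 0.0059 over all features, and 4 of 17 were positive, against 51.3% of all features. In experiment 1 the median was 0.029 with 11 of 17 positive, and in experiment 2 it was -0.60 with 3 of 17 positive. The positive ones of experiment 2 were Hmgcs1, Idi1 and Sc5d.

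Between mevalonate and the isoprenoid units, the kinases Mvk and Pmvk stood at -0.053 and -0.26 and at 0.15 and -0.84 in experiments 1 and 2, and the decarboxylase Mvd at 0.029 and -0.38. At the entry to sterols, squalene synthase Fdft1 was at 0.010 and -0.21, squalene epoxidase Sqle at 0.27 and -0.72 and lanosterol synthase Lss at 0.0086 and -0.61. Sqle thus went with Msmo1 and Fdps, while Fdft1 stayed closer to 0. Past lanosterol, the demethylase Cyp51 was at 0.36 and -0.60, Nsdhl, which works with Msmo1, at -0.029 and -1.15, and Hsd17b7, the keto reductase of the same step, at -0.36 and -0.61. The isomerase Ebp was at -0.12 and -0.032, the desaturase Sc5d at -0.033 and 0.076 and the last reductase Dhcr7 at 0.20 and -0.087. Nsdhl had the lowest value of the 17 in experiment 2, and Hsd17b7 in experiment 1. For Hsd17b7 the 6 arrays of HF0 and STD ran from -2.75 to 0.82, so its fitted value rests on arrays that disagree.

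HF3 and HF4 were set against STD as well. These comparisons share the STD extracts with HF0 against STD and are not independent of it. Hmgcs1 stood at 0.033 ± 0.21 in HF3 and 0.30 ± 0.21 in HF4 (SE, adjusted p = 0.965 and 0.527 by limma). In HF3 its value was 0.45 in experiment 1 and -0.39 in experiment 2, of opposite sign. Idi1 stood at 0.39 ± 0.11 and 0.19 ± 0.11 (adjusted p = 0.626 and 0.477). In the wider list 4 of 17 genes were positive in HF3 and 4 in HF4, and Mvk, Pmvk and Mvd were negative in both (-0.23, -0.31 and -0.47 in HF3, -0.31, -0.36 and -0.20 in HF4). Fdps stood at -0.54 ± 0.34 and -0.46 ± 0.34, Msmo1 at -0.22 ± 0.32 and -0.30 ± 0.32, and Tm7sf2 at -0.45 ± 0.31 and -0.48 ± 0.31, with adjusted p between 0.509 and 0.833. The direct arrays, made in experiment 1 only, read 0.59 and 0.28 for HF3 and 0.92 and 0.33 for HF4 in Hmgcs1, 0.70 and 0.12 and then 0.55 and -0.16 in Idi1, and 0.055 and -0.55 and then 0.60 and -0.088 in Fdps. They read 0.74 and 0.19 and then 0.57 and -0.19 in Msmo1, and -0.37 and 0.19 and then 0.41 and 0.36 in Tm7sf2. The negative fitted values of Fdps, Msmo1 and Tm7sf2 came through experiment 2: without its STD extract, HF3 against STD was 0.11 for Fdps, 0.39 for Msmo1 and 0.087 for Tm7sf2, and HF4 against STD 0.19, 0.31 and 0.062.

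Between the high fat generations none of the 5 genes passed the test. All 15 fitted differences from HF0 lay between -0.36 and 0.18, and these comparisons share the HF0 extracts. Hmgcs1 stood at -0.32 ± 0.26 in HF1, -0.36 ± 0.21 in HF3 and -0.088 ± 0.21 in HF4 (SE, adjusted p = 0.837, 0.797 and 0.967 by limma). Hmgcs1 in HF3 read 0.34 and -0.17 on the arrays of experiment 1 and -0.96 and -0.51 on those of experiment 2. The arrays of experiment 2 were both negative and those of experiment 1 of either sign. Idi1 stood at 0.18 ± 0.14, 0.054 ± 0.11 and -0.15 ± 0.11, with array values of -0.00055 and -0.26 and then 0.15 and -0.23 for HF4. Fdps stood at 0.084 ± 0.43, -0.013 ± 0.34 and 0.064 ± 0.34, and Msmo1 at 0.027 ± 0.41, -0.17 ± 0.32 and -0.25 ± 0.32. Msmo1 in HF4 had the same value of -0.25 in both experiments, while its 4 arrays read -0.19 and -0.50 and then 0.16 and -0.50. Tm7sf2 stood at 0.10 ± 0.39, 0.017 ± 0.31 and -0.0082 ± 0.31, and its sign in HF4 turned to 0.028 with scale and 0.020 with quantile normalization. In HF4 against HF0 the 25 male germ cell markers had a median of 3.37, 22 of them past the threshold, while the median of the 5 enzyme genes was -0.088 beside -0.032 over all features.

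The diet reversals compare mice of the same generation on the high fat and on the normal diet. In HF1 against HF1-REV all 5 genes were positive, with a median of 0.61 beside -0.0081 over all features, and none passed the test. The arrays of Hmgcs1 read 0.016 and 1.24, those of Idi1 0.92 and 0.30 and those of Fdps 0.011 and 1.05. Those of Msmo1 read 1.13 and 0.41 and those of Tm7sf2 0.75 and -0.069. Both arrays were positive in 4 of the 5 genes, all but Tm7sf2, beside 16.7% of all features. The fitted differences were 0.63 ± 0.29 for Hmgcs1, 0.61 ± 0.16 for Idi1, 0.53 ± 0.48 for Fdps, 0.77 ± 0.46 for Msmo1 and 0.34 ± 0.44 for Tm7sf2 (SE, n = 1 experiment a group, assumed to vary like the other groups). The lowest adjusted p of the 5 was 0.819 (Idi1, limma). Among the other pathway genes Cyp51 stood at 0.62 ± 0.34 and Sqle at 0.51 ± 0.34, with both arrays of each positive, and 15 of the 17 were positive, all but Pmvk (-0.16) and Mvk (-0.021).

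The same pair of extracts differed in marker genes of other cells. Of 25 male germ cell markers 23 were positive in HF1 against HF1-REV (median 0.93, -0.25 to 4.37), and of 15 epididymis markers 14 (median 0.44, -0.12 to 4.48), with Lcn5 at 4.26 and Crisp2 at 3.71. Of 18 adipocyte markers 2 were positive (median -0.36), of 13 endothelial markers 0 (median -0.36) and of 18 macrophage markers 15 (median 0.24). Their part in the values of the enzymes was not tested.

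In HF3 against HF3-REV Idi1 parted from the others. Its 2 arrays read 0.20 and 1.77, the first with HF3 in Cy5 and the second with HF3 in Cy3. The fitted difference was 1.00 ± 0.14 (SE, adjusted p = 0.0694 by limma), the largest of the 5 genes in any comparison and just outside the threshold. The SE comes from the spread between the experiments and does not hold the gap between these 2 arrays. Without the STD extract of experiment 2 the value was 0.98 with an adjusted p of 0.0193. Without the array that read 0.20 it was 1.78 with an adjusted p of 0.00558, and without the array that read 1.77 it was 0.21 with an adjusted p of 0.349. In the other settings with a test the adjusted p lay between 0.0513 and 0.105. Msmo1 read -0.28 and -0.57, with a fitted value of -0.36 ± 0.41, opposite to its sign in HF1 against HF1-REV. Hmgcs1 read -0.40 and 0.028, Fdps -0.31 and 0.11 and Tm7sf2 -0.080 and -0.012, with fitted values of 0.025 ± 0.26, 0.10 ± 0.43 and 0.017 ± 0.39. The fitted values of these 3 genes were smaller than their SE. In the same comparison 24 of 25 male germ cell markers were positive (median 2.35) and 15 of 15 epididymis markers (median 1.02), while 3 of 18 adipocyte markers (median -0.53), 2 of 13 endothelial markers (median -0.53) and 9 of 18 macrophage markers (median -0.032) were. Their part in the value of Idi1 was not tested.

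In HF4 against HF4-REV the 2 arrays of 4 genes disagreed in sign. Idi1 read -0.24 and 0.82, Fdps -0.086 and 1.02, Msmo1 -0.43 and 0.14 and Tm7sf2 0.12 and -0.68. Hmgcs1 read 0.81 and 0.0081, both positive. The fitted differences were 0.47 ± 0.26 for Hmgcs1, 0.34 ± 0.14 for Idi1, 0.63 ± 0.43 for Fdps, 0.052 ± 0.41 for Msmo1 and 0.022 ± 0.39 for Tm7sf2 (SE, adjusted p from 0.173 to 0.977 by limma). All 5 were positive in the fit, beside 52.5% of features, but Msmo1 and Tm7sf2 were negative on the means of their own arrays (-0.14 and -0.28), since HF4 enters the fit as its average over both experiments. Idi1 was 0.87 without the array that read -0.24, past the threshold with an adjusted p of 0.0115, and -0.19 without the other one. Of the wider list of 17 pathway genes 9 were positive (median 0.022). Before lanosterol, Mvk stood at -0.22, Pmvk at -0.036, Mvd at -0.20, Fdft1 at -0.20, Sqle at 0.25 and Lss at 0.37. Past it, Cyp51 stood at 0.20 and Hsd17b7 at 0.077, while Nsdhl was at -0.74 ± 0.37, Ebp at -0.80 ± 0.23, Sc5d at -0.49 ± 0.14 and Dhcr7 at -0.73 ± 0.18 (adjusted p = 0.237, 0.0753, 0.0706 and 0.0516 by limma). Values of both signs thus stood before and past lanosterol. In this comparison 23 of 25 male germ cell markers passed the threshold as positive (median 3.67). Of 18 adipocyte markers 16 were negative (median -0.60, 1 past the threshold), of 18 macrophage markers 15 (median -0.56, 2 past it) and of 13 endothelial markers 10 (median -0.45), and of 15 epididymis markers 11 were positive (median 0.64). The part of these in the enzyme values was not tested.

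**Figure D3:**
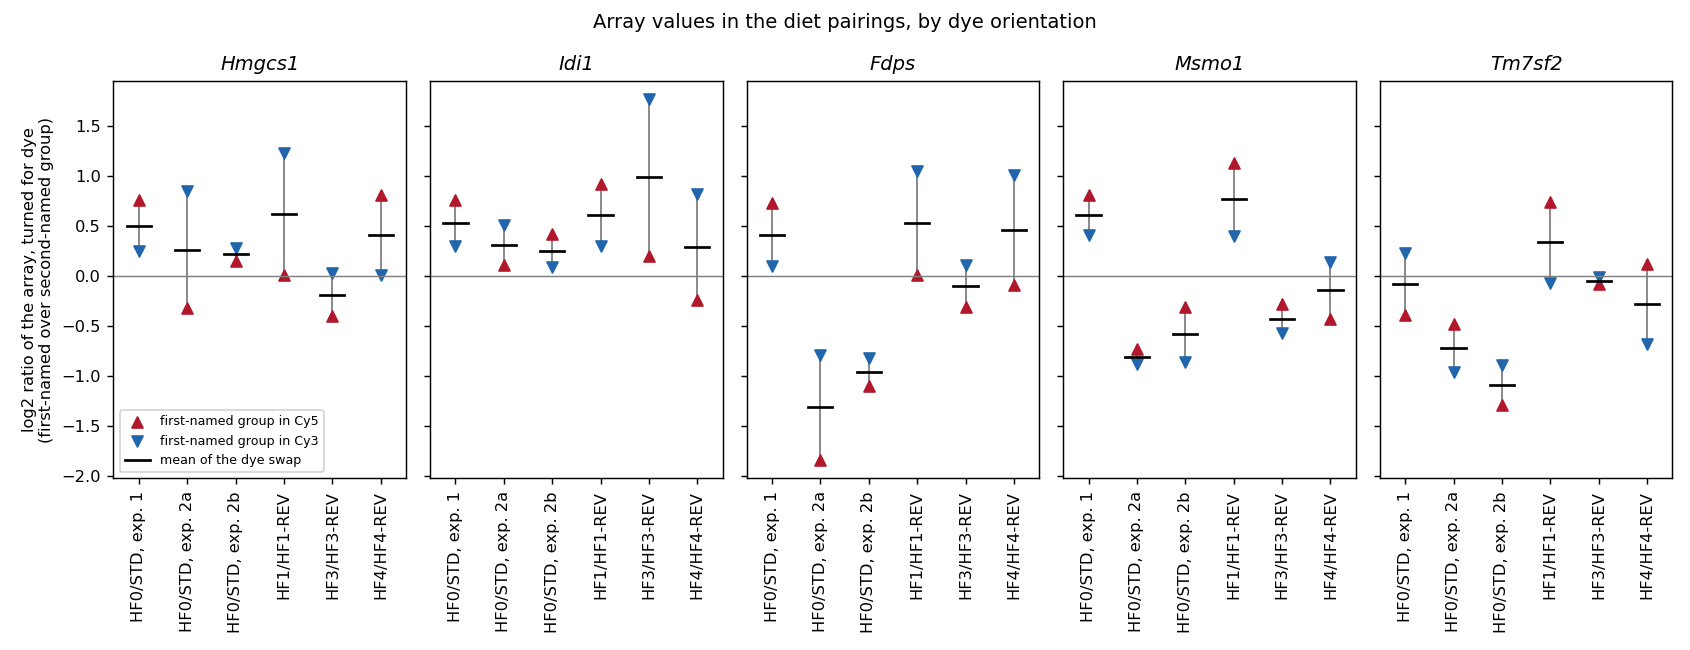
Array values of the 5 genes in the diet pairings (vertical axis: log2 ratio turned for dye). Upward triangles have the first-named group in Cy5, downward ones in Cy3, bars are dye-swap means, and 2a and 2b are the 2 dates of HF0 with STD in experiment 2. The triangles of Idi1 in HF3 against HF3-REV are 0.20 and 1.77, and those of Fdps in HF0 against STD lie above 0 in experiment 1 and below it in experiment 2.

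The readings of the 5 genes differed between the 2 dye orientations by amounts like those between the groups. The 2 orientations of a swap had the same sign in 52 of 85 cases, 12 of 17 for Hmgcs1, 11 for Idi1, 8 for Fdps, 11 for Msmo1 and 10 for Tm7sf2. In experiment 1 the dye component, the part of the reading that changes sign when the dyes are swapped, was 0.23 ± 0.057 for Hmgcs1, 0.23 ± 0.080 for Idi1, 0.30 ± 0.063 for Fdps and 0.23 ± 0.085 for Msmo1 (SD over 6 swaps), positive in all 6 swaps of each. For Tm7sf2 it was -0.19 ± 0.14 and positive in 1 of 6. A dye component of 1 sign in all 6 swaps was found in 4 of the 5 genes, beside 56.4% of all features. In experiment 2 the component of Fdps was negative in 10 of 11 swaps (-0.29 ± 0.24, SD), that of Msmo1 positive in 9 (0.16 ± 0.21), and those of Hmgcs1, Idi1 and Tm7sf2 positive in 4, 5 and 5. The mean component of Fdps thus differed in sign between the experiments. In experiment 2, outside its last date, the dye orientation went with 2 series of serial numbers in the array titles. A difference between the dyes cannot be told there from a difference between these series. On the last date the component of Fdps was -0.14 in HF0 with STD and -0.12 in HF4 with HF0.

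Pairings made in a ring allow a further check. The direct reading of 2 groups should equal the route by way of another group if the arrays of a group held the same RNA. The sources used here do not state whether they did, so a gap cannot tell array error from differences between RNA samples. For Fdps in experiment 1, HF3 against HF0 was 0.45 directly and -0.66 through STD, a gap of 1.11, the largest for the 5 genes. The other gaps of Fdps in experiment 1 were 0.21, -0.46 and 0.44. The spread of the dye-swap means around the group values was 0.38 for Fdps in experiment 1 (residual SD, 3 degrees of freedom), above that of 82.6% of features, whose median was 0.20. The other 4 genes had 0.15 (Idi1) to 0.21 (Msmo1). In experiment 2 the 5 genes had 0.10 (Hmgcs1) to 0.21 (Fdps), beside a median of 0.17. Fdps had the widest spread of the 5 in both experiments, and its value of 0.086 for HF0 against STD in experiment 1 lies inside it.

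Over the 12 group values the 5 genes varied more than most features: their SD ran from 0.30 (Hmgcs1) to 0.40 (Fdps), above 73.1% to 86.2% of features. The highest Pearson's r between them were 0.88 for Fdps and Tm7sf2, 0.77 for Msmo1 and Tm7sf2 and 0.75 for Fdps and Msmo1. Without the STD extract of experiment 2 the same values were 0.63, 0.62 and 0.57 over 11. Hmgcs1 had r of 0.52 with Fdps, 0.58 with Msmo1, 0.33 with Tm7sf2 and 0.43 with Idi1 over the 12, and 0.66, 0.61, 0.38 and 0.45 without that extract. The pair of Hmgcs1 and Fdps was then the highest of the 10, so the order of the pairs rests on that extract. Idi1 had 0.22 with Fdps, 0.048 with Msmo1 and 0.061 with Tm7sf2, and 0.46, 0.11 and 0.23 without it. The points share arrays and a common reference mean, so these values are descriptions.

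Likeness to the mean pattern of the 5, each scaled to unit SD, was read for other features and for the rest of the pathway. The nearest features are picked for a high r, so their standing above the pathway genes is no result about the pathway. Among 9482 named features with an SD at or above the median, the 8 nearest were Tfap2b, Cpn1, Slc25a13, Lrrc75b, Eml1, Aldh3a1, Pls1 and Cacna2d3, with r from 0.85 to 0.89 over the 12 group values and from 0.60 to 0.78 over the 17 dye swaps. Their values in HF0 against STD lay between -0.085 and 0.42 in experiment 1 and between -0.91 and -0.50 in experiment 2. Of the pathway genes outside the 5, Sqle had the highest r at 0.59, then Hsd17b7 at 0.57 and Cyp51 at 0.56. Ebp, Dhcr7 and Sc5d had -0.44, -0.28 and -0.13. For comparison, the 5 genes themselves, which are part of the mean, had 0.47 (Idi1) to 0.90 (Fdps) over the 12 group values.

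The group values of the 5 genes were also set beside the medians of 4 marker lists, which made 20 relations over 12 points, given as descriptions and chosen after the values were seen. Fdps had r of 0.86 and Tm7sf2 of 0.84 with the epididymis markers, and 0.59 and 0.44 over the 11 without the STD extract of experiment 2. Fdps had -0.80 with the macrophage markers, and -0.52 without that extract. Hmgcs1 had -0.85 with the adipocyte markers, -0.86 without that extract and -0.72 without HF1-REV. The adipocyte markers, such as Cd36, Cidec and Retn, had their highest median in HF1-REV (0.90), where Hmgcs1 was lowest (-0.73), and their lowest in HF0 of experiment 2 (-0.20), where it was highest (0.27). Idi1 had no r beyond -0.42 with any of the 4 lists. The part of the cell make-up in these values was not tested.

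**Figure D4:**
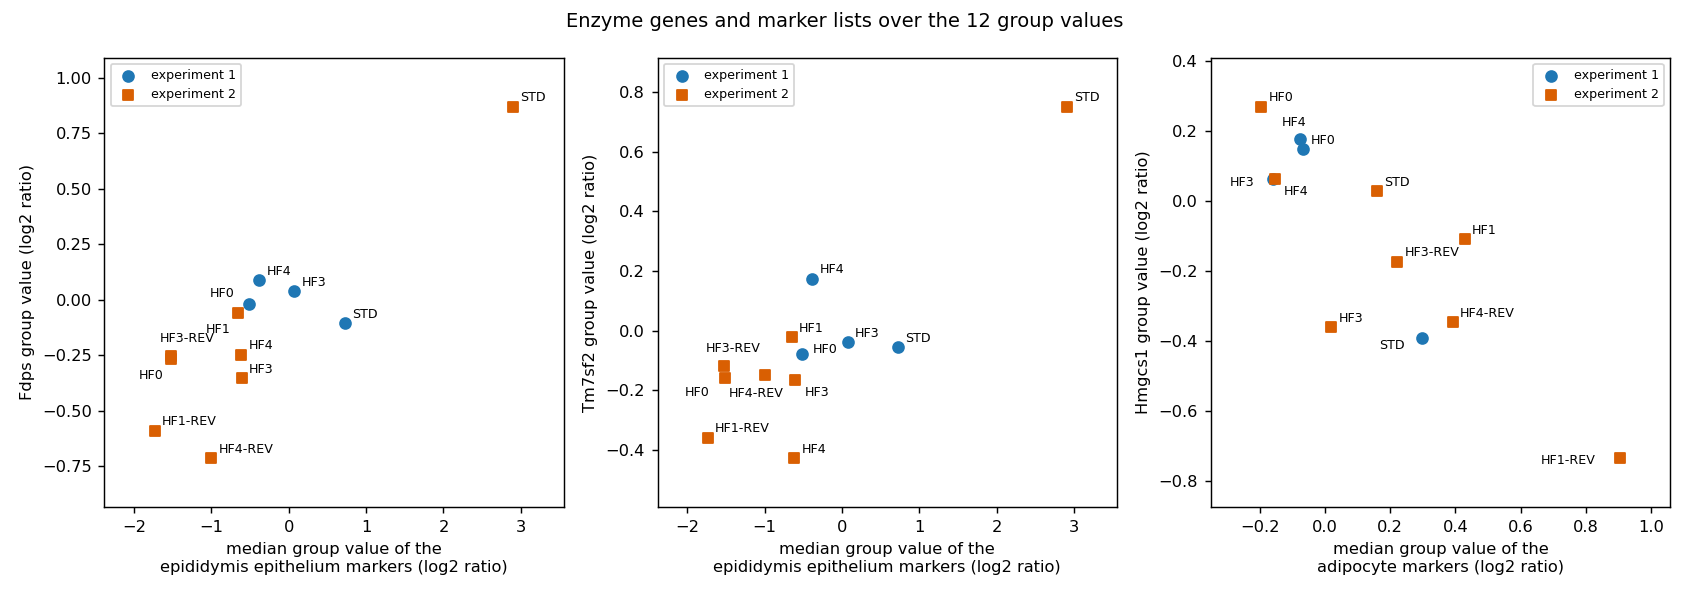
Group values of Fdps and Tm7sf2 against the median of the epididymis epithelium markers, and of Hmgcs1 against the median of the adipocyte markers (all axes log2 ratios, 12 points each, circles for experiment 1, squares for experiment 2). The STD square of experiment 2 lies alone at 2.90 on the epididymis axis, while on the adipocyte axis HF1-REV has the highest median and the lowest value of Hmgcs1.

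Neighbouring pathways were read from 4 further lists. Of 15 measured genes of sterol sensing and uptake, 0 passed the test in HF0 against STD (median -0.12), and 1 did in HF4 against HF4-REV, Npc1, which carries cholesterol out of lysosomes, at -0.93 ± 0.20 (SE, adjusted p = 0.039 by limma). That is 1 of 15 beside 11.2% of all features in that comparison. Scap, the escort of SREBP2, was at -0.26 in HF0 against STD and -0.36 in HF4 against HF0, and Lpin1, a phosphatidate phosphatase, at -0.60 and 0.35. Of 13 genes of sterol efflux, esterification and oxysterols, 0 passed in any of the 9 comparisons. Lipa, the lysosomal acid lipase, was at 0.58 in HF0 against STD and Ch25h, a cholesterol hydroxylase, at -0.67, while the oxysterol receptor Nr1h3 and the lipoprotein receptor Scarb1 were at -0.28 and 0.25 in HF4 against HF0. Of 10 genes of the isoprenoid branches, which draw on the product of Fdps, 0 passed in any comparison. Among these Pggt1b was at 0.27 and Icmt at -0.25 in HF0 against STD, and Pdss2 at 0.15 and Dhdds at -0.37 in HF4 against HF0. Of 19 genes of fatty acid synthesis, 2 passed, both in HF4 against HF4-REV: Fasn, fatty acid synthase, at 1.01 ± 0.20 and Thrsp, a lipogenic nuclear protein, at -1.43 ± 0.24 (SE, adjusted p = 0.0312 and 0.0226). These 2 of 19 likewise stand beside 11.2% of all features, a share near theirs. Fads1, a fatty acid desaturase, was at -0.23 in HF4 against HF0.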

How the data were processed

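Ratios of 34 dual-label arrays of mouse epididymal fat were analysed. The values are log2 ratios of the 2 channels, 1 per probe and array, deposited by the authors for 25344 probes, each array already centred near 0. The sources used here give no background correction, normalization, spot filter, numerator dye or log base. Ratios were coded Cy5 over Cy3 and taken to be in base 2, also where a figure axis reads log2. Experiment 1 used Trizol for extraction and experiment 2 Qiagen reagents, per the labels. Probes were named through the platform annotation (21082 with 1 symbol, 30 with several, 4232 with none), 20456 symbols were matched by gene ID to RefSeq, and probes of 1 gene were averaged, leaving 22879 features. No feature was filtered out. The number of arrays limits the precision.

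Each array was centred on its median over probes, the 2 orientations of a dye swap were averaged, and a least-squares fit in each experiment turned the pairings into group values, set against the average of STD, HF0, HF3 and HF4 there. The 12 group values went into limma 3.58.1 (R 4.3.3; functions lmFit and eBayes), blocked by experiment, with 3.16 prior and 3 residual degrees of freedom, Benjamini-Hochberg adjustment over all features and a threshold of 0.05. HF0, HF3 and HF4 enter comparisons with HF1 or a reversal group as averages over both experiments. Nothing says which extracts came from separate animals, so the p-values cover only how extracts vary, which may be technical. The fit was also run on simulated data, with differences put into HF4 alone and no dye component. That run does not bear on gaps between dye orientations, and its outcome is not given here. Tables and figures used Python 3.11.15 with pandas 2.3.3, numpy 2.4.6 and matplotlib 3.10.9.

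The 5 genes and the gene lists were chosen with earlier results of these data known. All 5 genes and every measured gene of the cholesterol synthesis list are named. Of each other pathway list, the most positive and most negative gene in HF0 against STD and in HF4 against HF0 are named, of marker lists up to 3 genes with the largest mean absolute value over the comparisons, and as genes with a like pattern the 8 with the highest Pearson r. Alternatives were no centring, scale and quantile normalization, a robust prior, leaving out each array, the STD extract or the last date of experiment 2, each experiment alone, direct arrays alone, and the median of probes. Some genes of the lists are not reported here.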

Additional observations from a re-analysis of the deposited data

Results flagged for a closer look

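Several values differed in sign between the experiments or between generations on every array, and in each case the difference was not tested. For Fdps in HF0 against STD the mean of the arrays was 0.42 in experiment 1 and -1.14 in experiment 2, with all 2 and all 4 arrays on the same side. For Msmo1 the same comparison gave 0.61 and -0.70. HF4 against HF3 also turned for 2 genes: the mean of the arrays was 0.30 in experiment 1 and -0.35 in experiment 2 for Msmo1, and 0.20 and -0.45 for Tm7sf2. Among the diet reversals, Msmo1 stood at 0.77 in HF1 against HF1-REV and at -0.43 in HF3 against HF3-REV, on both arrays of each. Hmgcs1 and Idi1 had no such case in these pairings.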

How the results depend on the processing

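No count of genes past the threshold fell, since all were 0. Without the STD extract of experiment 2 the count was 1 in HF3 against HF3-REV, through Idi1, and 1 in the F test. Leaving out each array in turn, the count ran from 0 to 1 in HF3 against HF3-REV, in HF4 against HF4-REV and in the F test. Over all features the counts called moved by more than 1.5 times, over the settings other than leaving out single arrays: 0 to 898 in HF4 against STD (reported 100), 0 to 584 in HF3 against HF0 (0), 0 to 8 in HF1 against HF1-REV (0), 0 to 886 in HF3 against HF3-REV (20), 136 to 4884 in HF4 against HF4-REV (2552) and 122 to 2115 in the F test (184). The cause was not tested.

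Leaving out the STD extract of experiment 2 also turned signs against STD: Fdps, Msmo1 and Tm7sf2 went to 0.13, 0.57 and 0.070 in HF0, to 0.11, 0.39 and 0.087 in HF3 and to 0.19, 0.31 and 0.062 in HF4. In HF3 against HF3-REV it turned Hmgcs1 to -0.045, Fdps to -0.065 and Tm7sf2 to -0.12, and in HF4 against HF4-REV Msmo1 to -0.10 and Tm7sf2 to -0.11. The median of the 5 genes moved to 0.31 in HF3 and 0.26 in HF4 against STD. It was -0.70 in HF0 against STD in experiment 2 alone, 0.31 and -0.74 in HF3 and 0.29 and -0.95 in HF4 in experiments 1 and 2 alone, and 0.41 and 0.26 on direct arrays. Scale normalization turned Msmo1 to 0.13 in HF0 against STD and -0.022 in HF1 against HF0, and Tm7sf2 to 0.028 in HF4 against HF0 and -0.016 in HF3 against HF3-REV. Quantile normalization gave 0.15 for Msmo1 in HF0 against STD, 0.020 and -0.027 for Tm7sf2, and moved the median in HF1 against HF1-REV to 0.87. Without centring, Tm7sf2 in HF3 against HF0 was -0.013. Without the last date of experiment 2, Msmo1 in HF1 against HF0 was -0.012, Fdps in HF4 against HF0 -0.015 and Tm7sf2 in HF3 against HF3-REV -0.0017. The robust prior and the median of probes could turn no sign of the 5 genes. The prior leaves the differences as they are, and each gene has 1 probe.

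Leaving out single arrays turned further signs. In HF0 against STD the range was -0.10 to 0.0084 for Msmo1. In HF3 against STD the range was -0.038 to 0.10 for Hmgcs1. In HF1 against HF0 the range was -0.12 to 0.29 for Fdps, -0.10 to 0.16 for Msmo1 and -0.011 to 0.21 for Tm7sf2. In HF3 against HF0 the range was -0.10 to 0.074 for Fdps and -0.060 to 0.093 for Tm7sf2. In HF4 against HF0 the range was -0.050 to 0.034 for Tm7sf2. In HF1 against HF1-REV the range was -0.069 to 0.75 for Tm7sf2. In HF3 against HF3-REV the range was -0.19 to 0.24 for Hmgcs1, -0.11 to 0.31 for Fdps and -0.021 to 0.055 for Tm7sf2. In HF4 against HF4-REV the range was -0.19 to 0.87 for Idi1, -0.23 to 0.34 for Msmo1 and -0.38 to 0.42 for Tm7sf2. The median in HF4 against HF4-REV ranged from 0.082 to 0.38. Causes were not tested. The dates of HF0 with STD in experiment 2 gave the same signs for all 5 genes. No paired analysis was possible because the numbers of the arrays name dye orientations of the same pairing and not animals, and the experiment was already a block. With 1 or 2 experiments a group and no spot intensities, differences below the spread between experiments could not be detected.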
